A study of Nothobranchius furzeri with 228 samples.

Results

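The genes described here are the 100 whose level in a fin clip at 20 weeks went most closely, in the positive direction, with the later age at death of the fish. They were chosen by the measured 20-week levels: of 26739 annotated genes, the 12239 that reached on average 5 CPM (counts per 1000000 counts of the library) at 20 weeks were ranked by the Spearman correlation of log2(CPM + 1) with age at death, computed within each of 3 runs of animal numbers and averaged with the number of fish as weight, and the first 100 were kept. RNA-seq had been carried out on fin clips of 114 male turquoise killifish, *Nothobranchius furzeri*, of the wild-derived strain MZM-0410, an annual fish with a short natural lifespan. A clip was taken from every fish at 2 ages, 10 and 20 weeks, and the animals aged normally afterwards, so the 2 groups hold 114 samples each and all fish carry the same strain, sex and condition. No treatment, transgene or mutation was part of the design.

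The runs are the fish numbered 1 to 50 (48 fish), 51 to 84 (34 fish) and 85 onward (32 fish). The labels give no batch or date, and what else differed between the runs cannot be told apart from the run itself. For 1 of the 114 fish no age at death is given. In the others it ran from 145 over a median of 311 to 405 days in fish 1 to 50, from 143 over 217 to 392 days in fish 51 to 84, and from 151 over 409 to 521 days in fish 85 onward. Fish 51 to 84 were thus the shortest-lived run and fish 85 onward the longest-lived. In 9 fish death came by week 24, shortly after the second clip, and 5 of these were fish 51 to 84.

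The link of a fin transcript with lifespan asks whether the state of a small piece of tissue at a fixed age goes with how long the animal will live. A fin clip holds epidermis, bone-forming and other connective tissue cells between bony rays, pigment cells, nerves, vessels and blood. Connective tissue cells secrete fibrillar collagens, which are hydroxylated and folded in the endoplasmic reticulum before they leave the cell. Dividing cells make purine nucleotides by a chain of enzymes that build inosine monophosphate and turn it into adenine and guanine nucleotides, with folate enzymes supplying the one-carbon units. In fish, purines are also the material of reflecting pigment cells. In bulk tissue, fewer cells of a type and less RNA per cell cannot be told apart.

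Libraries held 15854077 to 37764097 counts. Of the 26739 gene identifiers, 5463 could be given a gene symbol from tables of the study, which cover only part of the annotation, and among the 100 members 35 could. The other 65 members are given by identifier alone. Of the epidermal marker genes that could be looked up (6 identifiers for 8 symbols), all were present, with a summed median of 137717 CPM at 20 weeks, most of it krt5. Of muscle markers only 2 identifiers were found, whose summed median was 0.789 CPM. In 11 fish neither sample had its labelled partner as closest match among the samples of the other age, and 9 of these were fish 85 onward. The closest match of these 9 was always another of the 9, crosswise in 3 pairs of fish and in a ring in the other 3 fish, with correlations of 0.823 to 0.912 against -0.386 to 0.293 for the labelled partner and 0.802 to 0.943 for the labelled partners of the 23 matched fish of the run. These samples thus go against their labels, and the check does not show at which age the label is wrong. Which age at death belongs to the 10-week and to the 20-week samples of these 9 fish, and the change within each of them, are uncertain. A total of 4 libraries of 4 fish (fish 13, 50 and 60 at 20 weeks and fish 78 at 10 weeks) had a TMM scaling factor under 0.8. Some of the lowest levels given below come from these libraries. They include CALB2 and itm2ba of fish 50, CALB2 and MTHFD1 of fish 60, and the 10-week COL5A2 of fish 78. Counts of calls without unmatched fish or low-factor libraries are given beside the results where they were run. Counts of fish in which a gene rose or fell include the unmatched fish.

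The weighted correlation (rho) of the members with age at death ran from 0.265 to 0.390 with a median of 0.293, against a median of -0.026 over the 12239 genes. These values made the list and are a description only. The last members inside the list were Nfu_g_1_002033 (rho 0.2655) and Nfu_g_1_006317 (0.2646), and the first outside were Nfu_g_1_004646 (0.2641) and Nfu_g_1_008649 (0.2633), so the list has no natural edge. Within the runs the median rho of the members was 0.33, 0.32 and 0.27. Without the unmatched fish the value in fish 85 onward was 0.23, that over the runs 0.287, and 73 of the 100 members stayed on the list. In fish 1 to 50, the 16 fish that died last (364 to 405 days) had a median member level 0.28 log2 units above that of the 16 that died first (145 to 298 days). In fish 51 to 84 the same difference, between 11 fish (279 to 392 days) and 12 fish (143 to 193 days), was 0.32, and in fish 85 onward, between 10 fish (441 to 521 days) and 11 fish (151 to 340 days), it was 0.15. Averaged over runs the difference of a member lay between 0.05 and 1.10 log2 units, and without the fish that died by week 24 its median went from 0.25 to 0.23. By run the median without these fish was 0.25, 0.31 and 0.10. In fish 85 onward the difference was above 0 for 95 members with all fish (51.9% of all genes). Without the early deaths it was above 0 for 76 members (59.5% of all genes).

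How far the list holds outside the fish that made it was looked at by building it on 2 runs and reading it in the third. The 100 genes so chosen had, in the run left out, a median rho of 0.067 in fish 1 to 50 (64 above 0), -0.013 in fish 51 to 84 (48 above 0) and 0.082 in fish 85 onward (65 above 0). The medians of all 12239 genes in the same runs were 0.009, -0.101 and 0.004, with 51.5%, 26.8% and 50.9% of these genes above 0. Of the 100 members, 35, 32 and 57 stayed on the list when fish 1 to 50, 51 to 84 or 85 onward were left out of the rule.

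At the head of the list stood Nfu_g_1_016479, with rho 0.390, and CALB2, with 0.376, the gene of calretinin, a calcium-binding protein best known from neurons. In fish 1 to 50 the 20-week level of CALB2 was 1.11 CPM at the lowest, 23.6 at the median and 79.2 at the highest. In fish 51 to 84 it was 1.59, 25.2 and 63.9 CPM, and in fish 85 onward it was 8.47, 32.1 and 85.5 CPM. The runs overlapped widely, and the spread lay between fish of the same run. The 16 fish of the first run that died last had 39.1 ± 17.8 CPM (SD) and the 16 that died first 20.6 ± 9.22 CPM. The log2 difference between the fish that died last and first was 0.89 in this run. It was smaller in the other runs, with 0.56 in fish 51 to 84 and 0.29 in fish 85 onward. The rho of CALB2 with age at death was 0.559, 0.329 and 0.144 in the same order. For itm2ba, which encodes an integral membrane protein, the 20-week levels were 9.60, 36.9 and 55.8 CPM (lowest, median and highest) in fish 1 to 50, 11.7, 32.5 and 55.4 CPM in fish 51 to 84, and 28.9, 41.2 and 63.2 CPM in fish 85 onward.

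**Figure D1:**
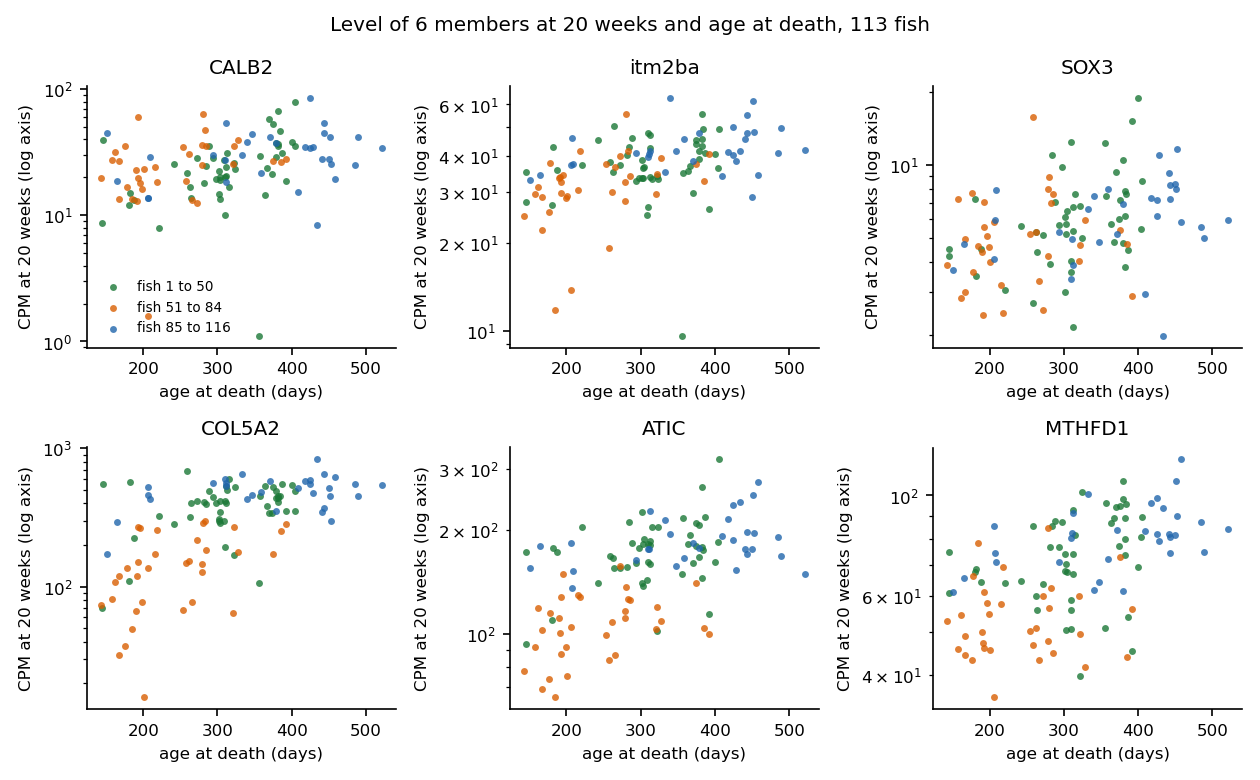
Level at 20 weeks (CPM, log axis) against age at death (days) of 6 members, CALB2, itm2ba, SOX3, COL5A2, ATIC and MTHFD1, with 1 point per fish coloured by run (all fish but the 1 of unknown age at death). The clouds rise only gently to the right within a colour (rho of these members 0.29 to 0.38 on average over runs), and for COL5A2, ATIC and MTHFD1 fish 51 to 84 lie below the others.

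The members did not move as one block. At 10 weeks, an age the rule did not use, pairs of members had a median rho across fish within runs of 0.127 (4950 pairs), against 0.061 over pairs of all genes. The points share library and depth, and with TMM-scaled CPM these medians were 0.101 and -0.005. Average-linkage grouping of the 10-week levels, cut at a distance (1 minus rho) of 0.7, gave 5 groups of at least 8 members, named here by a member with a symbol: the COL5A2 group (24 members), the ATIC group (17), the MTHFD1 group (17), the CALB2 group (9) and the KLF11 group (8). The remaining 25 members, SOX3, itm2ba, ENPP2, sept7b, gpm6ba and wbp1 among them, fell outside any such group. The groups were formed on the 10-week levels, so the median rho within them at that age (0.526, 0.437, 0.535, 0.773 and 0.443 in the order above) is a description. The corresponding medians in the change between the clips, which contains these levels and the 20-week levels of the rule, were 0.530, 0.496, 0.403, 0.816 and 0.423 and are a description too (0.087 over pairs of all genes). Between groups the median rho at 10 weeks ran from -0.112 (ATIC with CALB2 group) to 0.287 (COL5A2 with MTHFD1 group), and it was 0.055 for the COL5A2 with the ATIC group. At 20 weeks the median over all members was 0.267 (all genes 0.084), part of which the rule builds in.

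**Figure D2:**
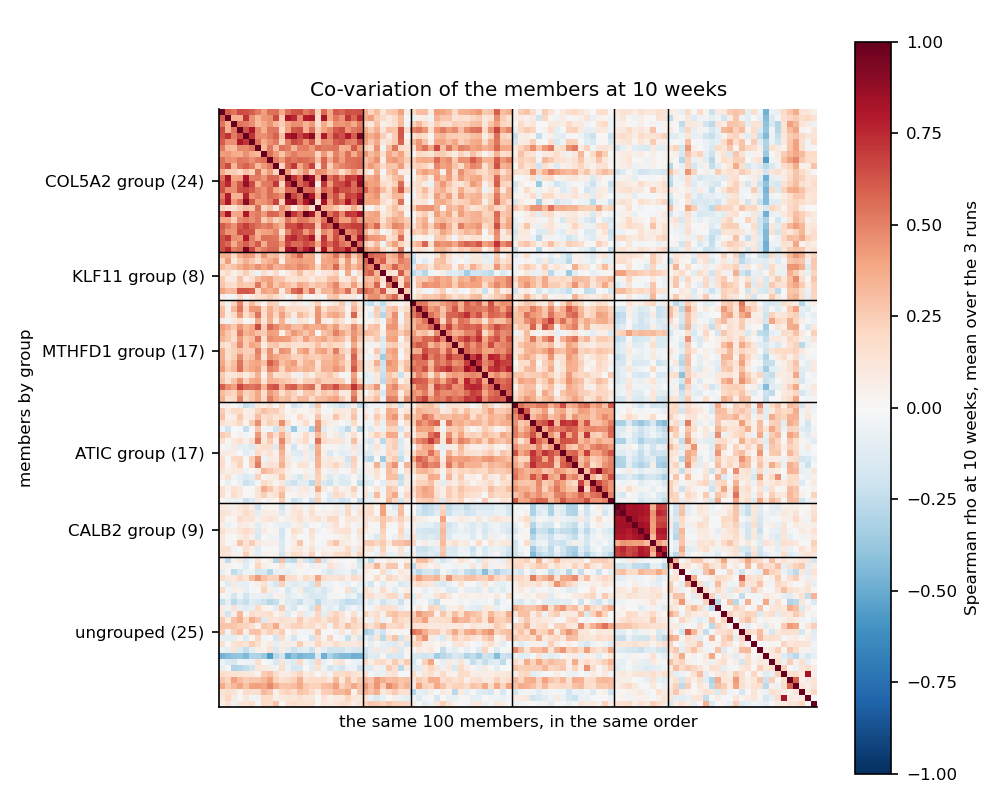
Spearman rho between the 100 members at 10 weeks (mean over the 3 runs, blue for negative and red for positive values), with members on both axes in the same order and lines between groups. The red blocks on the diagonal are the groups, of which the CALB2 group (9 members) is the tightest with a median rho of 0.773, and the areas between the ATIC and CALB2 groups are pale blue.

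The COL5A2 group held the most abundant members. COL5A2 encodes a chain of type V collagen, a fibrillar collagen of connective tissue. With it went gfra2a, a co-receptor of GDNF family growth factors, SYPL1, a vesicle membrane protein, cbx1b, a heterochromatin protein, DPYSL3, a cytoskeletal regulator known from growing axons, PCDH18, a protocadherin adhesion molecule, and CD276, an immune checkpoint ligand. The other 17 members carry no symbol, among them Nfu_g_1_018490, Nfu_g_1_023149 and Nfu_g_1_013298, with 20-week means of 3882, 3361 and 3244 CPM. Summed over the 24 genes, the mean level was 31744 CPM at 10 weeks and 13113 CPM at 20 weeks. Among the non-members nearest to this group at 10 weeks (60 genes, 20 with a symbol, mean rho 0.49 to 0.63) were P4HA1 and 2 genes named lepre1, which hydroxylate collagen prolines, the matrix genes SPARC, col6a1, col6a2 and HSPG2, and the chaperone-like endoplasmic reticulum genes calua, fkbp7 and RCN1.

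At 10 weeks the level of COL5A2 was 326 CPM at the lowest, 672 at the median and 1171 at the highest in fish 1 to 50. It was 238, 559.5 and 1123 CPM in fish 51 to 84, and 585, 1021 and 1399 CPM in fish 85 onward. At 20 weeks the same 3 values were 70.3, 412 and 686 CPM in fish 1 to 50, 15.9, 141 and 298 CPM in fish 51 to 84, and 173, 525 and 833 CPM in fish 85 onward. COL5A2 was lower at the second clip in 110 of 114 fish, and the medians fell in every run, most in the shortest-lived one. The log2 fold change from 10 to 20 weeks was -1.27 (SE 0.09, adjusted p = 3.57e-26 by edgeR's quasi-likelihood test with the fish as a block). Nfu_g_1_018490, the most abundant member, had medians of 8300 CPM at 10 weeks and 4479 CPM at 20 weeks in fish 1 to 50, 7054 and 1222 CPM in fish 51 to 84, and 15116 and 6200 CPM in fish 85 onward. It was higher at the second clip in 2 fish and lower in all others (log2 fold change -1.59, SE 0.09, adjusted p = 1.67e-31). Nfu_g_1_013039, with the lowest p of all members for the change, was lower in all fish but 1 (-1.31, SE 0.06, adjusted p = 4.9e-38). The widest span was that of Nfu_g_1_022498, with 20-week levels from 1.99 to 192 CPM in fish 51 to 84 and from 10.9 to 1028 CPM in fish 1 to 50.

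In the ATIC group, 3 members act on purines: ATIC, the bifunctional enzyme that completes inosine monophosphate, IMPDH1, which commits it to guanine nucleotides, and XDH, xanthine dehydrogenase, which breaks purines down. NDRG3, of the N-myc downstream regulated family, PRRT4, a proline-rich membrane protein, and ATN1, the transcriptional corepressor atrophin 1, were the other members with a symbol, beside 11 without one. In fish 1 to 50 the level of ATIC was 137 CPM at the lowest, 202 at the median and 337 at the highest at 10 weeks, and 93.4, 176 and 321 CPM at 20 weeks. In fish 51 to 84 it was 120, 187 and 292 CPM at 10 weeks and 65.5, 106.5 and 158 CPM at 20 weeks. In fish 85 onward it was 149, 207 and 269 CPM, and then 136, 179 and 275 CPM. The 10-week values of the runs lay on top of each other, while at 20 weeks the median of fish 51 to 84 was under the lowest library of fish 85 onward. The fold change over all fish was -0.41 (log2, SE 0.05, adjusted p = 5.76e-13 by edgeR), with a fall in 90 fish. For IMPDH1 it was -0.60 (SE 0.06, adjusted p = 8.62e-15), also with a fall in 90 fish. The nearest non-members at 10 weeks (16 of 60 with a symbol, mean rho 0.40 to 0.58) included 2 genes named myo5aa, which move pigment granules along the cytoskeleton, and mitfb, an ortholog of the pigment cell regulator MITF. Others were rab27b, the nucleoside transporter slc29a1, DYNC1I2, ALAS1 and prdx6. In the 20-week level of fish 51 to 84 against fish 1 to 50, edgeR did not call mitfb (log2 difference -0.05), the myo5aa genes (-0.06 each) or slc29a1 (-0.15). It called rab27b (-0.42), DYNC1I2 (-0.34), ALAS1 (-0.52) and prdx6 (-0.29) lower. Of 10 pigment cell markers, 2 could be looked up (mitfb and oca2). Their summed level had a 20-week median of 75.5, 68.8 and 78.7 CPM in the 3 runs. Most of this sum was mitfb (20-week mean 58.4 CPM). Between the clips edgeR called oca2 lower, but not mitfb. It also called oca2 lower at 20 weeks in fish 51 to 84 than in fish 1 to 50. The part of pigment cells in the levels of this group was not tested.

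The MTHFD1 group held 5 members without a symbol and 12 with one: MTHFD1, the folate enzyme that supplies one-carbon units, pfas, an early enzyme of purine synthesis, DCTN1, the large subunit of dynactin, BRD8, a bromodomain subunit of a histone acetyltransferase complex, TUBGCP3 of the gamma-tubulin complex, sae1, a subunit of the SUMO-activating enzyme, vdac1, the channel of the outer mitochondrial membrane, NANS, which makes sialic acid, the amino acid transporter slc7a10, the topoisomerase top3b, the peroxidase GPX7 and pafah1b3, a catalytic subunit of a platelet-activating factor acetylhydrolase. MTHFD1 had medians of 82.1 CPM at 10 weeks and 74.1 CPM at 20 weeks in fish 1 to 50, 84.3 and 50.5 CPM in fish 51 to 84, and 86.4 and 82.04 CPM in fish 85 onward. Its 20-week levels reached from 39.8 to 107.7 CPM, from 35.8 to 84.9 CPM and from 61.3 to 120 CPM, so that the runs overlapped although the middle one lay lowest. The change over all fish was -0.35 (log2, SE 0.04, adjusted p = 2.66e-11 by edgeR), with a fall in 86 fish. Among the non-members nearest to this group (39 of 60 with a symbol, mean rho 0.64 to 0.68) were pcna, fen1, rfc3 and dnmt1, which copy DNA and its methylation, tyms, which makes thymidylate, and the proteasome genes psmc4, psma1, psma2 and PSMD1.

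The CALB2 group was the tightest at 10 weeks. Besides CALB2 it held 8 members without a symbol, with summed means of 134 CPM at 10 weeks and 136 CPM at 20 weeks for the 9 genes. CALB2 itself had 10-week medians of 24.5, 21.8 and 36.5 CPM in the 3 runs, beside the 20-week medians of 23.6, 25.2 and 32.1 CPM. Its change over all fish was -0.04 (log2, SE 0.09, adjusted p = 0.72 by edgeR), with a lower level in 62 fish. Within fish 85 onward alone it fell (-0.31, adjusted p = 0.00803, limma). Nfu_g_1_016479, the first gene of the list, was close to the level filter: its 20-week median was 5.74, 6.19 and 7.11 CPM in the 3 runs, with single fish between 0.404 and 21.9 CPM. The few symbols among its neighbours at 10 weeks (10 of 60) were led by SHROOM1, a regulator of epithelial cell shape, ALDH1A2, which makes retinoic acid, and MYO6, an unconventional myosin.

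The KLF11 group held KLF11, a Krüppel-like transcription factor, wfs1b, an ortholog of the endoplasmic reticulum protein wolframin, nubpl, an assembly factor of respiratory complex I, and 5 members without a symbol. KLF11 had a wide range, from 0.267 over a median of 8.23 to 31.3 CPM at 20 weeks in fish 1 to 50, from 0.130 over 6.12 to 32.1 CPM in fish 51 to 84, and from 3.78 over 26.6 to 46.7 CPM in fish 85 onward. In the last run its 20-week level had a rho of only 0.003 with age at death, so its place on the list rests on the other 2 runs (0.504 and 0.305). Its 10-week and 20-week levels had a rho of -0.125 across fish.

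The first question that the rule left untouched was whether the members already went with lifespan at 10 weeks. They did so weakly at best. The 10-week level of the members had a median weighted rho of 0.072 with age at death, with 73 of 100 above 0, against a median of -0.020 and 38.4% above 0 over all 12239 genes. By run the median was 0.05, 0.14 and 0.03. In a Cox proportional hazards model stratified by run, 0 of 100 members and 0 of 17116 genes tested (0%) passed an adjusted p of 0.05, and edgeR's test of the 10-week level against age at death, with the run in the model, also called 0 members (0% of genes). At an unadjusted p under 0.05, 18 members had a lower hazard with a higher 10-week level (1.16% of all genes did) and 0 members a higher one (0.561% of all genes). Without the unmatched fish the counts were 16 and 0. In edgeR 15 members were higher in longer-lived fish at that level (1.15% of all genes). The 10-week and 20-week levels come from the same fish and the same ages at death, and the median rho between both levels of a gene across fish was 0.25 for the members and 0.18 for all genes, so these counts are not independent of the rule. Members also co-varied at 10 weeks, so those counted are not independent of each other.

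Of the 18 members, 10 belonged to the ATIC group, in which all 17 had a rho above 0 at 10 weeks (median 0.18). This group was formed on the same 10-week levels, and its members co-varied (median rho 0.437). Its 17 values are therefore not independent of each other. The lowest p was that of Nfu_g_1_005674, whose 10-week level ran from 7.37 over 14.1 to 86.5 CPM in fish 1 to 50, from 7.37 over 12.97 to 147 CPM in fish 51 to 84 and from 8.54 over 15.7 to 25.3 CPM in fish 85 onward. A level higher by 1 log2 unit went with a hazard ratio of 0.548 (95% interval 0.386 to 0.779, unadjusted p = 0.000803, adjusted p = 1, Cox model). Nfu_g_1_003309 followed with 0.416 (0.245 to 0.707, p = 0.00119), and the hazard ratios of ATN1, XDH and ATIC were 0.392, 0.677 and 0.491 (unadjusted p = 0.00215, 0.004 and 0.0373). Outside that group itm2ba had a hazard ratio of 0.459 (p = 0.0179) and gpm6ba, a membrane protein of the proteolipid family, 0.578 (p = 0.0337). The 24 members of the COL5A2 group had a median rho of -0.05 at 10 weeks, with 9 above 0. An unadjusted p under 0.05 was reached by 0 of 24 members in this group, 0 of 17 in the MTHFD1 group and 0 of 9 in the CALB2 group, and differences between groups were not tested. Toward a higher hazard, the lowest p belonged to Nfu_g_1_016555 (hazard ratio 1.65, p = 0.156) and Nfu_g_1_018365 (1.36, p = 0.203). None of these values passed adjustment over the genes tested.

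**Figure D3:**
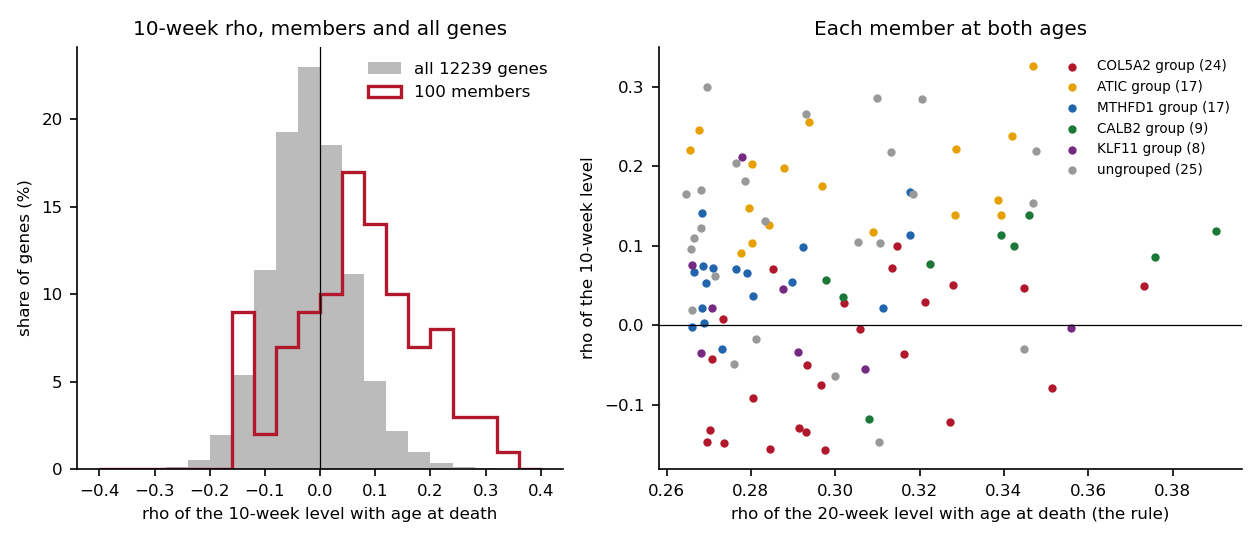
Left, share of genes (%) by rho of the 10-week level with age at death, for all 12239 genes (grey) and the 100 members (red line). Right, each member by its rho at 20 weeks (the rule, horizontal) and at 10 weeks (vertical), coloured by group: members lie around a median of 0.072 at 10 weeks, with the ATIC group wholly above 0 and 9 of 24 members of the COL5A2 group above 0.

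The second question was how the members changed between the clips. This change contains the 20-week levels that chose the members. Its counts, here and by run below, are therefore not independent of the rule. Most members fell. With the fish as a block, edgeR called 63 members lower at 20 weeks (29.5% of all genes tested were called lower) and 10 higher (32% of all genes), while 27 were not called. All 100 members passed the filter of this test. In this and the other tests the share of all genes is over the 17116 genes tested. These include genes under the 5 CPM at 20 weeks that members had to reach. The median log2 fold change was -0.21, against 0.00 over all genes. In the COL5A2 group 24 of 24 members fell, with a median of -0.76 and a range from -2.06 to -0.21. In the ATIC group 14 of 17 fell (median -0.22), in the MTHFD1 group 11 of 17 (median -0.14) and in the KLF11 group 4 of 8, with 1 higher. In the CALB2 group 0 of 9 members passed in either direction, with fold changes between -0.06 and 0.17 on the log2 scale. Of the 10 members that rose, 9 were outside the groups, and the tenth was nubpl.

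Among the risers, Nfu_g_1_003373 had the lowest p. Its medians were 227 CPM at 10 weeks and 271 CPM at 20 weeks in fish 1 to 50, 236 and 246 CPM in fish 51 to 84, and 232 and 294 CPM in fish 85 onward (log2 fold change 0.24, SE 0.03, adjusted p = 3.06e-10, higher in 92 fish). SOX3, a transcription factor of neural progenitors, rose by 0.52 on the log2 scale (SE 0.08, adjusted p = 1.79e-08, higher in 84 fish). Its medians went from 3.65 to 5.67 CPM in fish 1 to 50 and from 2.80 to 4.71 CPM in fish 51 to 84, but stood at 6.21 and 5.92 CPM in fish 85 onward. The rise of SOX3 was thus a matter of the first and second run, and within fish 85 onward alone its change was -0.12 (adjusted p = 0.32, limma). The septin gene sept7b, by contrast, hardly moved in any run, with changes of -0.08, -0.07 and -0.10, and ENPP2, which encodes the enzyme autotaxin that makes lysophosphatidic acid, moved by -0.10, -0.54 and 0.45.

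The direction of the change differed between the runs. Tested within each run with limma, 48 members were lower and 10 higher in fish 1 to 50 (13.9% and 13.5% of all genes), 81 lower and 2 higher in fish 51 to 84 (35.2% and 36.8% of all genes), and 34 lower and 35 higher in fish 85 onward (34.3% and 38% of all genes). The median change was -0.16, -0.64 and -0.01. The fold changes over all 114 fish are averages over these different runs. In limma on the differences within fish, leaving out the 11 unmatched fish gave 67 members lower and 8 higher, and leaving out the fish with a low scaling factor 63 and 10. Within fish 85 onward alone, the 23 matched fish gave 34 lower and 38 higher. A difference of the change between the runs passed for 89 members in limma's F test, but so it did for 83% of all genes, and the count by itself is close to that background. The directions were unequal. The change was lower in fish 51 to 84 than in fish 1 to 50 for 79 members (32.2% of all genes) and higher for 2 (5456 of 17116 genes). It was higher in fish 85 onward than in fish 51 to 84 for 82 members (34.5% of all genes) and lower for 5 (5589 of 17116 genes). Without the unmatched fish the last 2 counts of members were 81 and 4.

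**Figure D4:**
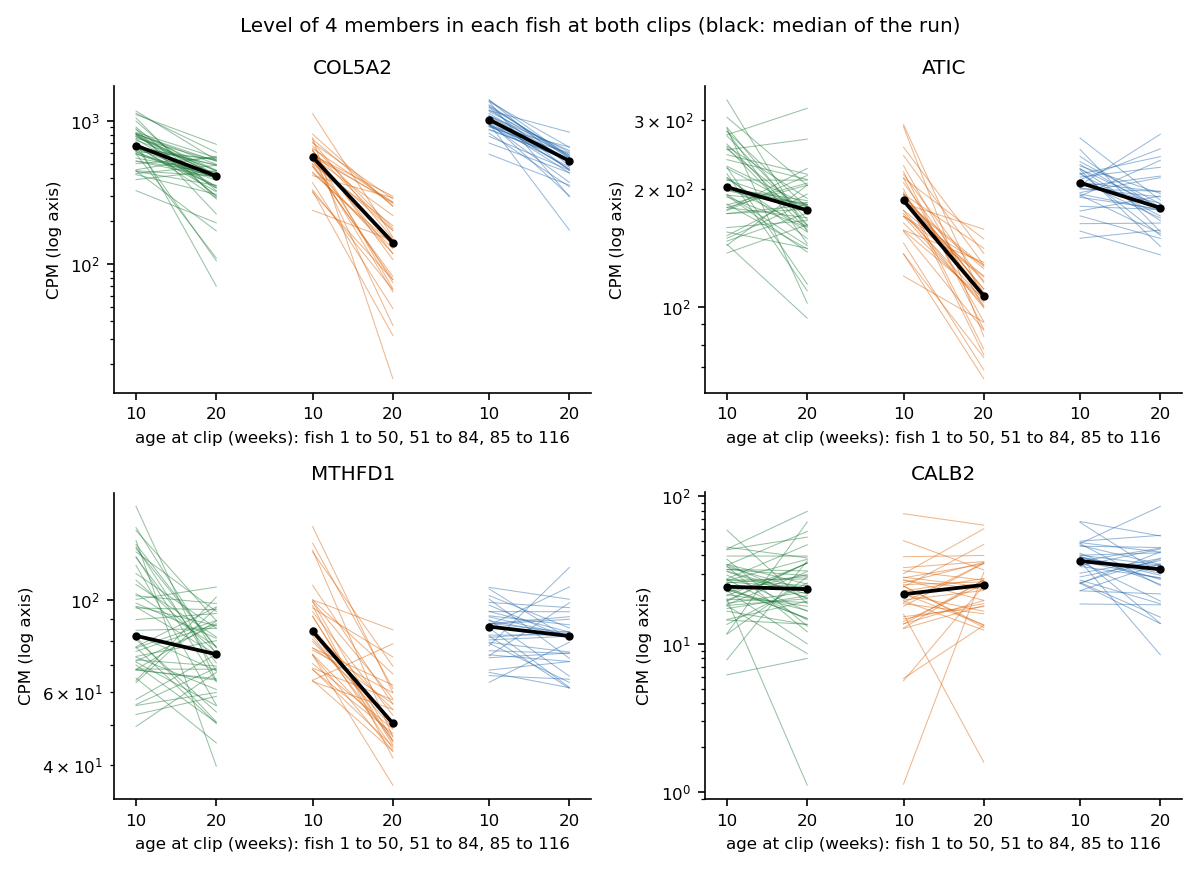
Level (CPM, log axis) of COL5A2, ATIC, MTHFD1 and CALB2 at 10 and 20 weeks, with 1 line per fish coloured by run and the median of the run in black. The black lines fall in all runs for COL5A2 (from 559.5 to 141 CPM in fish 51 to 84), fall most in fish 51 to 84 for ATIC and MTHFD1, and for CALB2 go from 24.5 to 23.6, from 21.8 to 25.2 and from 36.5 to 32.1 CPM in the 3 runs.

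BRD8, DCTN1 and NANS are examples of this pattern. DCTN1 had medians of 130.5 CPM at 10 weeks and 123 CPM at 20 weeks in fish 1 to 50, 138 and 86.3 CPM in fish 51 to 84, and 111.3 and 157 CPM in fish 85 onward. At 20 weeks its highest library in fish 51 to 84 was at 137 CPM and its lowest in fish 85 onward at 120 CPM, so that even these runs overlapped slightly. The change was 1.07 log2 units higher in fish 85 onward than in fish 51 to 84 (adjusted over all genes, p = 1.2e-27 for any difference between runs, limma). BRD8 was lower at the second clip in all 34 fish of the middle run and higher in 31 of 32 fish of the last one. The 32 include 9 unmatched fish, whose own change is uncertain. In the 23 matched fish of the last run the change of BRD8 was 0.52 (log2, SE 0.06, limma). For NANS the change was -1.67 (SE 0.15) in fish 51 to 84 and 0.72 (SE 0.07) in fish 85 onward. Nfu_g_1_015191 of the COL5A2 group had the lowest p among members whose change was lower in fish 51 to 84: its 20-week median was 1247 CPM in fish 1 to 50, 129 CPM in fish 51 to 84, with a single fish as low as 3.91 CPM, and 1672 CPM in fish 85 onward.

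The members' levels were compared between the runs at each age. The rule ranks fish only within a run and did not use these differences between runs. The 20-week levels chose the members, however, and members co-varied at that age within runs (median rho 0.267, all genes 0.084). Counts from the 20-week levels, and from the change that contains them, are therefore not independent of the rule. At 20 weeks, 78 members were lower in fish 51 to 84 than in fish 1 to 50 (31.6% of all genes). In the other direction 0 members were called (5186 of 17116 genes), and the median log2 difference was -0.53. In fish 85 onward, 79 members were higher than in fish 51 to 84 (29.1% of all genes), with a median of 0.73. Lower there were 2 members, Nfu_g_1_006317 and Nfu_g_1_018282 (5548 of 17116 genes). Against fish 1 to 50, 38 members were higher in fish 85 onward (19.1% of all genes) and 6 lower (4176 of 17116 genes). The remaining 56 members did not pass in that comparison. Any difference between runs passed for 89 members (79.2% of all genes). Without the libraries with a low scaling factor, 80 members were higher in fish 85 onward than in fish 51 to 84 and 2 lower. There are only 3 runs, and their difference in lifespan cannot be told apart from any other difference between them.

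At 10 weeks the members as a whole did not show this order, while the COL5A2 group did so in part. Any difference between runs passed for 62 members (68.4% of all genes). Compared with fish 1 to 50, 14 members were lower in fish 51 to 84 (19.1% of all genes) and 9 higher (16.6%), and compared with fish 51 to 84, 28 were higher in fish 85 onward (27%) and 33 lower (30.5%). The median differences were 0.00 and -0.04. Without the libraries with a low scaling factor the last 2 counts were 27 and 31. In the COL5A2 group, 11 of 24 members were lower in fish 51 to 84 than in fish 1 to 50 and 0 higher (median -0.19). In fish 85 onward, 14 were higher than in fish 51 to 84 and 4 lower (0.32). Against fish 1 to 50, 13 were higher in fish 85 onward and 2 lower (0.28). Of all 17116 genes, 3326 were higher and 4339 lower in this last comparison. In the MTHFD1 group, by contrast, 12 of 17 members were lower in fish 85 onward than in fish 51 to 84 and 0 higher. Nfu_g_1_013039 had 10-week medians of 531, 411 and 812 CPM in the 3 runs, and sae1 of 6.06, 7.74 and 3.50 CPM. At 20 weeks both stood lowest in fish 51 to 84, with medians of 290.5, 138 and 356 CPM and of 4.74, 1.74 and 7.25 CPM.

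By group, the 20-week level in fish 51 to 84 was below that in fish 1 to 50 for 24 of 24 members of the COL5A2 group (median -1.07), 17 of 17 of the ATIC group (-0.73), 16 of 17 of the MTHFD1 group (-0.41) and 5 of 8 of the KLF11 group (-0.25), but for 1 of 9 members of the CALB2 group (median 0.12). In the CALB2 group the difference between these runs that the other groups share was thus not called for 8 of 9 members. The largest of these differences were those of Nfu_g_1_022498 (-2.98, SE 0.29, adjusted p = 1.28e-15 by edgeR) and Nfu_g_1_015191 (-2.96, SE 0.26, adjusted p = 1.16e-17). For cbx1b the difference was -0.82 (SE 0.07, adjusted p = 6.34e-20), with 20-week medians of 41.3, 22.3 and 36.1 CPM.

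**Figure D5:**
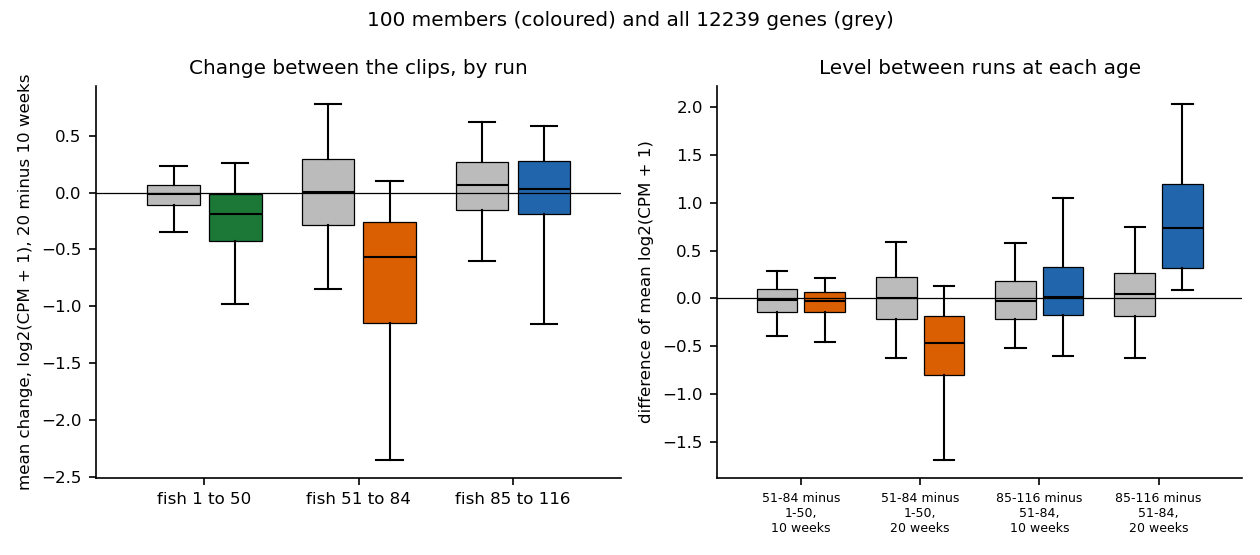
Left, mean change of each gene from 10 to 20 weeks in log2(CPM + 1), by run. Right, difference of the mean level between runs at each age, for fish 51 to 84 minus fish 1 to 50 and fish 85 onward minus fish 51 to 84; boxes give quartiles and median, whiskers the 5th and 95th percentile, of the 100 members (coloured) and all 12239 genes (grey), with member medians of -0.53 and 0.73 in the edgeR fits at 20 weeks and 0.00 and -0.04 at 10 weeks.

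Fish also differed more from each other at 20 weeks. The SD of the log2 level between fish of the same run had a median of 0.37 at 10 weeks and 0.47 at 20 weeks over the members, and of 0.30 and 0.32 over all genes. It was larger at 20 weeks for 77 of 100 members and for 65.9% of all genes. The 20-week levels chose the members, so this is a description.

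The purine and one-carbon genes were followed as a pathway because 5 members belong to it, which was seen before the list was drawn up. Of 13 identifiers, 11 had at least 5 CPM at 20 weeks. Among these, 10 were lower at 20 than at 10 weeks and 0 higher (median -0.41, all genes 0.00, with 29.5% of all genes lower), and 10 were lower at 20 weeks in fish 51 to 84 than in fish 1 to 50 (median -0.71, with 31.6% of all genes lower). As 5 of these 11 are members, the counts are not independent of the list. The members are ATIC, pfas, IMPDH1, XDH and MTHFD1. For pfas the 20-week median was 32.9 CPM in fish 1 to 50, 19.6 CPM in fish 51 to 84 and 35.2 CPM in fish 85 onward, and the change over all fish was -0.34 (SE 0.05, adjusted p = 8.18e-09 by edgeR). XDH had 20-week medians of 35.6, 20.0 and 55 CPM. Of the non-members, the mitochondrial folate enzymes MTHFD2 and SHMT2 changed by -0.95 (SE 0.12) and -0.65 (SE 0.08), and gmps, which makes guanosine monophosphate, by -0.45 (SE 0.04). Their rho with age at death at 20 weeks was -0.00054, 0.20 and 0.10. ADSSL1 is named for 2 identifiers, close paralogs whose reads may be shared, of which Nfu_g_1_005319 fell (-0.25) and Nfu_g_1_002979 did not pass (change 0.00, adjusted p = 0.987).

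Of the lists for other processes, only the collagen and bone matrix list held a member, COL5A2. For the counts that follow, 29.5% of all genes tested fell and 32% rose, and 42.5% of all 12239 genes had a rho above 0 at 20 weeks. Of the 25 collagen and bone matrix genes at 5 CPM or more, 19 fell and 1 rose between the clips (median -0.46), and their median rho with age at death at 20 weeks was 0.09. Of 35 DNA replication and cell cycle genes, 0 were members, 29 fell and 2 rose (median -0.59), with a median rho of 0.11. Of 29 proteasome genes, 0 were members, 7 fell and 2 rose, and their median rho was 0.12, with 28 above 0. On the opposite side, the 63 cytosolic ribosomal protein genes had a median rho of -0.10 and 58 of them rose between the clips. Of 30 glucocorticoid and immediate early response genes 19 rose, with a median rho of -0.12. The remaining lists (oxidative phosphorylation, spliceosome, glycolysis, chaperones, circadian clock, translation factors and tRNA synthetases) held 0 members and had median rho values between -0.12 and 0.07.

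Properties of the libraries and sums of cell type markers were set beside these results. The 10 most abundant genes took between 16.7% and 45.6% of the counts of a 20-week library, and the relation of this share to age at death within runs did not pass adjustment (Pearson's r = 0.24, permutation p = 0.0104, adjusted p = 0.0627 over 6 tests; Spearman's rho = 0.19, p = 0.0431, adjusted p = 0.129; r = 0.27 without the 2 farthest libraries). Total count (r = 0.05, p = 0.638) and scaling factor (r = -0.08, p = 0.397) had smaller coefficients. The summed level of the 2 osteoblast markers that could be looked up of 8 (SPARC and alp) had 20-week medians of 1750, 708 and 1773 CPM in the 3 runs and ranged from 276 to 2717 CPM, the order of the COL5A2 group. Most of this sum was SPARC (20-week mean 1367 CPM, alp 37.8 CPM). Both genes were among the 60 non-members nearest to the COL5A2 group at 10 weeks, so this sum is not a readout separate from that group. Within runs the sum was 1720, 666 and 1767 CPM in the fish that died first and 1757, 775 and 1712 CPM in those that died last. The epidermal sum had medians of 145872, 109130 and 140253 CPM at 20 weeks. For fibroblasts only vim could be looked up (a sum of 23.7, 17.6 and 25.1 CPM in the 3 runs), for leukocytes only coro1a (47.7, 52.7 and 50.96 CPM), and for osteoclasts 0 of 5 symbols. The sum of 8 erythrocyte markers (8 of 8 symbols, of which 6 had a mean under 1 CPM) was 56.1, 25.04 and 56.5 CPM, and that of 9 nerve and glia markers (9 of 9 symbols) 95.2, 70.5 and 106.9 CPM, both lowest in fish 51 to 84. The endothelial sum (3 of 7 symbols) was highest there, with 70.1, 89.3 and 73.9 CPM. The part of these cell types and of library composition in the members' levels was not tested.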

How the data were processed

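The authors deposited raw counts, whole numbers that had not been normalized, for 228 libraries of fin clip RNA. The kit (TruSeq RNA v2) is unstranded, so reads of a gene and of an overlapping antisense gene are mixed. The tools bcl2fastq 1.8.4, TopHat2 2.1.0 and featureCounts 1.5.0 are listed in the processing notes of the submitters. The genome build and annotation of these fin clip libraries were not given in the sources used here. Depth was 15854077 to 37764097 counts per library, which limits precision by counting error only. Gene symbols came from the supplementary tables of the study (killifish symbol, otherwise that of the human ortholog), from which no value was taken. A reference gene table given by accession and locus tag shared no identifier with the files.

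The members and all gene lists were chosen with earlier results of these data known, and the list of purine and one-carbon genes was added after the members were seen. CPM were computed from library totals. Low-count genes were dropped by filterByExpr of edgeR, and 17116 remained. Shares of genes called are over these 17116, a wider set than the 12239 genes from which the members came. The change was tested with edgeR 4.0.16 (R 4.3.3, quasi-likelihood, TMM factors, fish as a block, dispersion trend from every 20th gene), and within and between runs with limma 3.58.1 on differences within fish. The labels name the same fish for both samples of a pair. As a check of this pairing, 300 genes with a stable level within fish, chosen in the other of 10 blocks of fish, were used to find the closest sample of the other age. It failed for both samples in 11 fish. Levels between runs were tested with edgeR. The 10-week level (log2 of counts scaled by DESeq2 1.42.0 size factors, pseudocount 1) was related to age at death with a Cox model per gene (survival 3.8.3, strata by run). Tests were two-sided with Benjamini-Hochberg adjustment over all genes at 0.05. Library properties were tested with 100000 permutations within runs. The programs were tested on simulated data. Whether samples of a group share a tank or day is not in the labels, so p-values measure the spread between these fish.

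Set for naming were the first 10 members, the next 25 with a symbol, and 2 genes on either side of the edge of the list. For each test the 2 members of each direction with the lowest p were added. Not all of these are described above: Nfu_g_1_017352 and Nfu_g_1_016725 of the first 10 and some members with the lowest p are not. GPX7, XDH, top3b and wbp1, Nfu_g_1_023149, SPARC, the other neighbours of the groups and single purine genes were picked after their values were seen.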

Additional observations from a re-analysis of the deposited data

Results flagged for a closer look

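The change from 10 to 20 weeks differed between the 3 runs for 89 of 100 members by limma's F test, as it did for 83% of all genes tested. The difference of the log2 change between fish 51 to 84 and fish 1 to 50 was above 0 with the lowest p for Nfu_g_1_004170 (0.32) and Nfu_g_1_016479 (0.49), and below 0 with the lowest p for Nfu_g_1_015191 (-3.18) and NANS (-1.81). Between fish 85 onward and fish 51 to 84 it was 1.07 for DCTN1 and 1.31 for BRD8, and -0.85 for SOX3 and -0.64 for Nfu_g_1_016479.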

How the results depend on the processing

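Without the replicate block, edgeR called 69 members for the change, 61 lower and 8 higher (73, 63 and 10 with it). Of the summary values under all alternatives, 67 stayed within a fixed factor of the main value and the 13 given here moved beyond it. Within that factor, 74 of the 100 members remained on the list with TMM-scaled CPM and 73 with DESeq2 size factors. Without the fish with a low scaling factor 82 remained, and without the unmatched fish 73. The 13 that moved are given below. Settings added after seeing the data left out fish with a low scaling factor, unmatched fish from the co-variation, the 20-week rho and the change in fish 85 onward, and early deaths from the levels by age at death, or used TMM-scaled CPM for the co-variation. The list itself depended on the rule: of the 100 members, 60 remained with a mean of at least 1 CPM, 50 with at least 20 CPM, 60 with Pearson correlation, 52 without the fish that died by week 24, 35, 32 and 57 with a run left out of the rule, 44 with 1 correlation over all fish and 62 with 4 ranges. Members called higher between the clips were 10 in all fish, 2 in fish 51 to 84 and 35 in fish 85 onward, and members called lower 63 in all and 34 in fish 85 onward. Without strata the Cox model of the 10-week level called 36 members and 4333 of 17116 genes, against 0.

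Among the genes set for naming, 29 log2 changes turned sign within 1 run. In fish 85 onward alone they were 0.15 for Nfu_g_1_005764, -0.12 for SOX3, 0.50 for ATN1, 0.55 for BRD8, 0.034 for SYPL1, 0.46 for DCTN1, 0.45 for ENPP2, 0.17 for DPYSL3, 0.21 for PCDH18, 0.14 for slc7a10, 0.013 for TUBGCP3, 0.012 for pafah1b3, 0.72 for NANS, 0.54 for Nfu_g_1_023160, -0.013 for Nfu_g_1_005084, 0.41 for Nfu_g_1_005909, 0.16 for vdac1, 0.83 for sae1, 0.14 for Nfu_g_1_016555 and 0.21 for Nfu_g_1_018365. In fish 51 to 84 they were -0.22 for itm2ba, -0.17 for Nfu_g_1_001061, -0.31 for wfs1b, -0.16 for Nfu_g_1_005084, -0.07 for Nfu_g_1_018282, -0.085 for nubpl and -0.21 for Nfu_g_1_000033, and in fish 1 to 50 0.06 for Nfu_g_1_005674 and 0.06 for pafah1b3. The cause was not tested. Of the other values of single genes, 557 kept direction and side of the threshold, 22 passed it and 24 no longer did. Members near 5 CPM carry a larger counting error than abundant ones. The spread between fish limits members of any level, and with them fold changes near 0.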
